A study of Schizosaccharomyces pombe with 30 samples.

Results

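The U1 snRNP is the small nuclear ribonucleoprotein that pairs with the 5′ splice site of an intron and starts assembly of the spliceosome. Besides its RNA and the Sm ring it holds a small set of proteins of its own, and 7 genes encoding such proteins were examined here across all groups of the series: usp101 (SPAC19A8.13), usp102 (SPBC4B4.07c), usp103 (SPBP35G2.09), usp104 or prp40 (SPAC4D7.13), usp105 or prp39 (SPBC4B4.09), usp106 or luc7 (SPCC16A11.13) and usp107 (SPBC839.10). The rule that chose them uses their names and no measured value, although earlier results of these data were known when it was set, and all exon, intron and junction features of these genes were taken. That gave 30 of the 14556 features of the splicing array, for 7 of its 5084 genes: 7 exon, 12 intron and 11 junction features. Each gene had 1 exon feature. Introns and junctions were measured in usp102, usp103, usp105 and usp107, whereas usp101, usp104 and usp106 had an exon feature alone. In usp103 the junction of exons 1 and 2 had no feature.

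The series consists of 30 two-colour arrays of Schizosaccharomyces pombe (fission yeast), in 10 groups of 3, each setting mutant RNA in Cy5 against wild-type RNA in Cy3. At 30 °C the groups were pht1∆, swr1∆, usp107DAmP and pht1∆ usp107DAmP. After 9 hours at 16 °C they were pht1∆, prp16DAmP and pht1∆ prp16DAmP, and after 2 hours at 37 °C they were swr1∆, prp16DAmP and swr1∆ prp16DAmP. Pht1 is the histone variant H2A.Z, Swr1 is the ATPase that places it in chromatin, and Prp16 is a spliceosomal ATPase of the second step. A DAmP allele lowers an mRNA by disturbing its 3′ end, so in the usp107DAmP groups one of the 7 genes is itself the target of the mutation. All groups, the wild-type RNA included, came from cultures grown in YES5 medium.

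Each value is a log ratio of mutant over wild type within an array, read as log2. A transcript level is the value of the exon feature, and a splicing index is an intron feature's value from which the value of its gene's exon feature was subtracted. A positive index is what retained intron gives, and it also arises when the exon feature is low and the intron feature is not. A call means an adjusted p under 0.05 in limma, with Benjamini-Hochberg adjustment over all features of that kind. Errors after ± are limma standard errors, and n = 3 arrays per group. With 3 arrays a group, the number of arrays limits the precision. An array centred on 0 does not show a change shared by all transcripts.

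Several arrays stood apart or did not match their labels. Correlations within groups ran from r = 0.058 to 0.757 over all features. Replicate 3 of usp107DAmP correlated with its group at r = 0.22 and 0.23, and replicate 3 of pht1∆ usp107DAmP at 0.20 and 0.31, against 0.64 and 0.68 for the other pair of each group. Replicate 3 of swr1∆ prp16DAmP correlated at 0.058 and 0.087, against 0.757 for the other pair. The SD of an array over all features ran from 0.131 to 0.214 at 37 °C, 0.201 to 0.464 at 30 °C and 0.225 to 0.379 at 16 °C. The fit gave all groups the same spread for a feature, so calls are not directly comparable between temperatures. Of the targeted genes, pht1 was lower in pht1∆ at 30 °C (-0.65 ± 0.10) and 16 °C (-0.74 ± 0.10), but was not called where pht1∆ was combined with usp107DAmP (0.02) or with prp16DAmP (-0.03). The swr1 feature read -0.11, -0.19 and -0.11 in the groups labelled swr1∆ at 30 °C, swr1∆ at 37 °C and swr1∆ prp16DAmP. None of these 3 was called, nor was prp16 in any group labelled prp16DAmP. The prp16 feature was instead called lower in the arrays labelled pht1∆ usp107DAmP (0.08, -0.41 and -1.20, mean -0.51, adjusted p = 0.0395), a call that ended without replicate 2 (-0.56, adjusted p = 0.105) or replicate 3 (-0.17, adjusted p = 0.539). How the probes lie relative to each deletion is not stated in the labels, so the genotypes below are those of the labels. Replicates 2 and 3 labelled swr1∆ at 37 °C ran opposite to some other arrays (lowest r = -0.528). No result of these genes was called in that group or in a difference that uses it, so turning its sign tests none of the calls below.

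The U1-specific proteins divide by what they touch. In human and budding yeast U1, the proteins corresponding to Usp101 (U1-70K) and Usp102 (protein A of U1) bind stem loops of the U1 RNA, and that corresponding to Usp103 (protein C of U1) sits on the duplex of U1 RNA and 5′ splice site. In budding yeast Prp39 (Usp105) is a scaffold of the particle, Prp40 (Usp104) contacts proteins at the branch site, and Luc7 (Usp106) and Snu71 (the name RefSeq gives as a synonym of usp107) join Prp40. Luc7 affects the choice among 5′ splice sites.

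The sequences shown here are the 6 introns of usp105, which gave most of the calls, then usp103 intron 1 and usp107 intron 2, the others for which an index or an intron feature was called against wild type. They are RefSeq sequence of assembly ASM294v3, matched to array introns by their order in the gene. The number of annotated introns equals the highest intron number on the array in each of the 4 genes, and the labels name no genome build for the array probes. Capitals mark the first 6 bases, the last 3 bases and, of the 4 searched words (CTAAC and CTAAT, and also CTGAC and CTGAT, on the intron's own strand), the match nearest the 3′ end.
usp105 intron 1: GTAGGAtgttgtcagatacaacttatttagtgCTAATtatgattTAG
usp105 intron 2: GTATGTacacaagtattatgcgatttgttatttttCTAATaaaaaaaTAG
usp105 intron 3: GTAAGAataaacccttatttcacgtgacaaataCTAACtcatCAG
usp105 intron 4: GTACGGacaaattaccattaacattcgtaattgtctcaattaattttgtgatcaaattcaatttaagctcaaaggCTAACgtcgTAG
usp105 intron 5: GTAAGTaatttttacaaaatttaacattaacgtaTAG
usp105 intron 6: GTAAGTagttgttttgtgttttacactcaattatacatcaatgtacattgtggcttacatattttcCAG
usp103 intron 1: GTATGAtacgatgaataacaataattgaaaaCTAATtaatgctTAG
usp107 intron 2: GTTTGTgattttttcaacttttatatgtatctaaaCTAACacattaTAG

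The usp105 gene lies at II:3429769-3432178 on the plus strand with 7 exons, and its introns, all between coding exons, start at II:3429893, 3430127, 3430281, 3430494, 3431177 and 3431502. The exon feature of usp105 reports exon 5, at 596 bases the longest internal exon of the gene, which lies between introns 4 and 5. Of 5062 annotated coding introns of the genome, 27.5% start with GTAAGT, as introns 5 and 6 of usp105 do. Only 0.356% start with GTAGGA (intron 1) and 0.612% with GTACGG (intron 4). The start of usp103 intron 1 (II:981250-981295, plus strand), GTATGA, is shared by 4.9% of introns, and that of usp107 intron 2 (II:620260-620308, plus strand), GTTTGT, by 1.68%. The 12 introns of the 4 genes are 37 to 87 bases long, against a median of 56 bases genome-wide, and 10 of the 12 hold one of the 4 words, as do 76.4% of all coding introns. Introns 5 and 6 of usp105 do not, which says only that these letters are absent from them.

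At the transcript level, 9 of 70 tests against wild type were called, 7 lower and 2 higher, and 4 of the 7 lower calls were of usp105. In usp107DAmP 3 of the 7 genes were called, all lower, against 20.5% of all exon features, and in the arrays labelled pht1∆ usp107DAmP 3 were called (2 lower, 1 higher) against 42.4%. In pht1∆ at 30 °C 1 gene was called, against 25.7%. In prp16DAmP at 16 °C 1 was called against 17.3%, and in the arrays labelled pht1∆ prp16DAmP 1 against 23.4%. No gene was called by limma in pht1∆ at 16 °C (20.3% of all exon features called; 1 of the 7 genes with an unadjusted p under 0.05), in swr1∆ at 30 °C (5.56%; 2 genes), or at 37 °C in swr1∆ (1.05%; 3 genes), prp16DAmP (0.118%; 0 genes) and swr1∆ prp16DAmP (0.355%; 1 gene). The share of the 7 genes that was called was therefore above the background in usp107DAmP and close to it, or below it, in the other groups, on counts of at most 3. Their median transcript level in usp107DAmP was -0.22, against -0.02 over all genes.

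**Figure D1:**
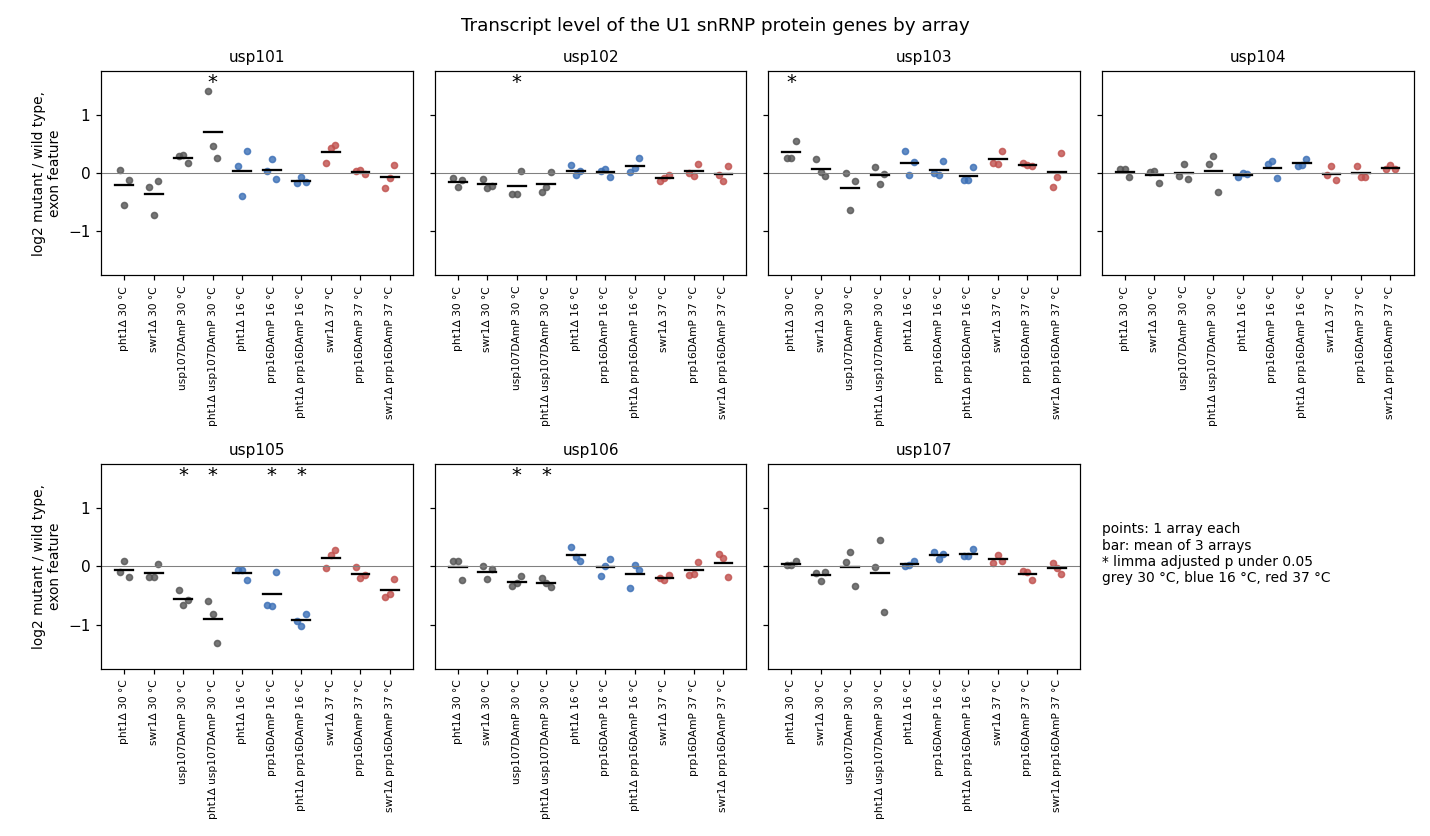
Log2 ratio of mutant over wild type of the exon feature (vertical axis) of the 7 U1 snRNP protein genes in the 10 groups (horizontal axis), with 1 point per array, a bar at the mean of 3 arrays and a star over called means. The usp105 arrays lie below 0 in usp107DAmP and prp16DAmP and in their double mutants, usp104 stays within 0.33 of 0 on every array, and 1 array of pht1∆ usp107DAmP stands at 1.40 for usp101.

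The scaffold gene usp105 had the lowest levels of the 7 genes. In the arrays labelled pht1∆ prp16DAmP at 16 °C it read -0.94, -1.01 and -0.81 on the 3 arrays (mean -0.92 ± 0.11, adjusted p = 5.3e-06). That mean is 52.8% of wild type for the exon feature alone, and the junctions of the gene, given below, read nearer 0. In those labelled pht1∆ usp107DAmP at 30 °C it read -0.60, -0.81 and -1.31 (-0.91 ± 0.11, adjusted p = 2.0e-06). In usp107DAmP alone the arrays read -0.41, -0.67 and -0.58 (-0.55 ± 0.11, adjusted p = 0.00125). All 9 of these arrays lay below every array of pht1∆ at either temperature.

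In prp16DAmP at 16 °C usp105 read -0.66, -0.68 and -0.09, with a mean of -0.48 ± 0.11 (adjusted p = 0.00446). The third array lay within the range of the groups without a call, and the call ended without replicate 1 (-0.39, adjusted p = 0.103) or without replicate 2 (-0.38, adjusted p = 0.0725). At 37 °C the arrays labelled swr1∆ prp16DAmP read -0.53, -0.48 and -0.22, and the mean was not called (-0.41 ± 0.11, adjusted p = 0.0756). In order of mean level, each group overlapped the next one except here: swr1∆ prp16DAmP (highest array -0.22) lay below prp16DAmP at 37 °C (lowest array -0.21). From there the means ran through -0.13 in prp16DAmP at 37 °C, -0.12 in pht1∆ at 16 °C, -0.11 in swr1∆ at 30 °C and -0.06 in pht1∆ at 30 °C to 0.14 in swr1∆ at 37 °C, none of them called.

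Set against the single H2A.Z mutant, usp105 was lower in usp107DAmP by 0.49 ± 0.16 (adjusted p = 0.0203, 28.2% of all genes called) and in the arrays labelled pht1∆ usp107DAmP the difference was -0.85 ± 0.16 (adjusted p = 5.2e-04, 29.7% called). For pht1∆ prp16DAmP the difference from pht1∆ at 16 °C was -0.80 ± 0.16 (adjusted p = 0.00141, 20.7% called). The first of these 3 calls ended without replicate 2 of either group (highest adjusted p = 0.0879). The differences of usp105 between the double mutants and the DAmP mutants were not called: -0.35 from usp107DAmP (95% interval -0.68 to -0.03, adjusted p = 0.309) and -0.44 from prp16DAmP at 16 °C (-0.76 to -0.12, adjusted p = 0.482). In those comparisons 0.829% and 0.158% of all genes were called. Same-numbered arrays of these groups deviated together, and usp105 was lower in the double mutant in all 3 pairs at 30 °C (by -0.19, -0.14 and -0.74) and all 3 at 16 °C (-0.29, -0.33 and -0.72). With the replicate number as a block the adjusted p was 0.0776 at 30 °C and 0.0845 at 16 °C. None of the 3 interactions called a transcript of the 7 genes (1.03%, 2.56% and 0.335% of all genes called). At an unadjusted p under 0.05 they held 1, 1 and 2 of the 7.

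Most other features of usp105 gave values nearer 0 than exon 5. The mean of the 6 junction features was -0.09 in usp107DAmP, -0.18 in the arrays labelled pht1∆ usp107DAmP, -0.03 in prp16DAmP at 16 °C and 0.02 in the arrays labelled pht1∆ prp16DAmP, where the exon feature read -0.55, -0.91, -0.48 and -0.92. The medians of the 6 junctions were -0.13, -0.28, 0.0045 and -0.0016. In both usp107DAmP groups the mean holds the high junction 4-5 of replicate 3. The mean of the 6 intron features in the same groups was -0.02, 0.06, 0.15 and 0.12. A comparison of the exon feature with the mean of the junctions of the same gene, added after these values were seen, was called in all 4 groups: -0.46 ± 0.14 (adjusted p = 0.0384, 10.7% of 2266 genes called), -0.72 ± 0.14 (5.6e-04, 32.6%), -0.44 ± 0.14 (0.0282, 23.5%) and -0.95 ± 0.14 (6.3e-05, 28.4%). In pht1∆ usp107DAmP the 3 arrays read -0.21, -0.46 and -1.51, and without replicate 3, which stood apart, the value was -0.33 (adjusted p = 0.031). The call in usp107DAmP ended without replicate 2 (-0.48, adjusted p = 0.172) or replicate 3 (-0.32, adjusted p = 0.242), and that in prp16DAmP without replicate 1 (-0.37, adjusted p = 0.221) or replicate 2 (-0.34, adjusted p = 0.191). Relative to pht1∆ the same measure differed by -0.63 in the arrays labelled pht1∆ usp107DAmP (adjusted p = 0.0279, 21.8% of genes called) and by -0.97 in those labelled pht1∆ prp16DAmP (16.2% called). The first of these ended without any array of pht1∆ or without double-mutant replicate 3 (-0.24, adjusted p = 0.242). The lower level of usp105 was thus measured on its exon 5 feature, and most junctions of the same transcript gave smaller values.

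**Figure D2:**
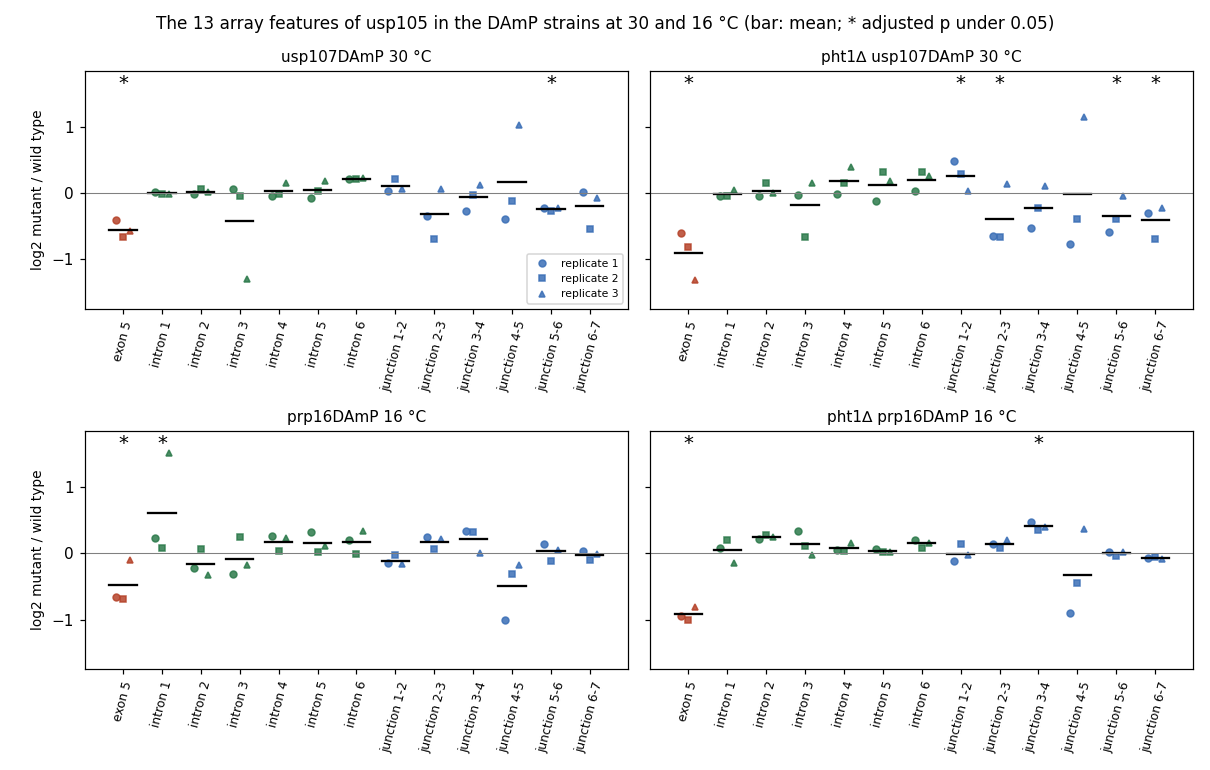
Log2 ratio of mutant over wild type (vertical axis) of the 13 features of usp105 (horizontal axis) in the 4 groups where its exon feature was called, with 1 symbol per replicate, a bar at the mean of 3 arrays and a star over called means. Exon 5 (red) lies below 0 on all 12 arrays, the introns (green) mostly near 0, and junction 4-5 (blue) reads 1.03 and 1.15 on replicate 3 of the usp107DAmP groups.

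Single junctions of usp105 moved in both directions. In pht1∆ usp107DAmP 6 of the 11 junctions of the 4 genes were called, against 38.6% of all junctions, and 4 of these were in usp105. Junctions 2-3 (-0.39), 5-6 (-0.34) and 6-7 (-0.41) fell and junction 1-2 rose (0.27). The arrays of junction 1-2 read 0.48, 0.29 and 0.03, those of junction 5-6 read -0.59, -0.39 and -0.04, and each of the 4 calls ended without 1 array of the group. Without replicate 1 the values were 0.16 for junction 1-2 (adjusted p = 0.177), -0.26 for 2-3 (0.174) and -0.22 for 5-6 (0.0617), and without replicate 2 they were 0.26 for junction 1-2 (0.0585), -0.25 for 2-3 (0.205) and -0.26 for 6-7 (0.0738). In usp107DAmP 1 of 11 was called (12.3% of all junctions), junction 5-6 at -0.24, and the call ended without any one of its arrays. In pht1∆ prp16DAmP 2 of 11 were called (15.4%), and one was junction 3-4 of usp105, which read 0.48, 0.36 and 0.40 (0.41 ± 0.09, adjusted p = 0.00356) while exon 5 fell. Without replicate 1 it was 0.38 (adjusted p = 0.0632). No junction was called by limma in pht1∆ at 30 °C (22.4% of all junctions called, 1 of 11 with an unadjusted p under 0.05), pht1∆ at 16 °C (17.2%, 3), prp16DAmP at 16 °C (13.8%, 2), swr1∆ at 37 °C (0.0645%, 0), prp16DAmP at 37 °C (0%, 1), swr1∆ prp16DAmP (0.194%, 1) and swr1∆ at 30 °C (3.57%, 2). Relative to pht1∆, junctions 2-3 (-0.45), 5-6 (-0.38) and 6-7 (-0.46) of usp105 were lower in pht1∆ usp107DAmP (29.6% called) and junction 3-4 was higher in pht1∆ prp16DAmP (0.62, 12.9%). Each of the first 3 lost its call without 1 or more arrays of the groups compared (highest adjusted p = 0.226).

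Junction 4-5, at the edge of exon 5, was called in no group and had the widest spread. It read -0.39, -0.12 and 1.03 in usp107DAmP and -0.77, -0.39 and 1.15 in the arrays labelled pht1∆ usp107DAmP. In both groups replicate 3, the array least like its group, was high for this junction, and in the double mutant exon 5 was lowest on that same array. In prp16DAmP at 16 °C the junction read -1.01, -0.30 and -0.18.

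The splicing index rose for most introns of usp105 in the same 4 groups. Of 120 tests of the 12 introns against wild type 26 were called, 25 higher and 1 lower, and 24 of the 26 were in usp105. In usp107DAmP 6 of the 12 introns were called higher (14.2% of all introns called in either direction), 5 of them in usp105, with an index of 0.55 for intron 1, 0.57 for intron 2, 0.58 for intron 4, 0.60 for intron 5 and 0.77 for intron 6. Intron 3 read 0.47, 0.62 and -0.72 and was not called. In pht1∆ usp107DAmP all 6 introns of usp105 and none of the others were called (30.6%), from 0.73 for intron 3 to 1.11 for intron 6. In those labelled pht1∆ prp16DAmP again all 6 of usp105 were called (17.6%), from 0.96 for intron 5 to 1.18 for intron 2. In prp16DAmP at 16 °C 4 were called (17.6%): intron 1 at 1.09, intron 4 at 0.65, intron 5 at 0.63 and intron 6 at 0.65. No index was called by limma in swr1∆ at 37 °C (0% of all introns called, 0 of 12 with an unadjusted p under 0.05), prp16DAmP at 37 °C (0.0623%, 0) and swr1∆ at 30 °C (6.31%, 1).

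Several of these calls rested on single arrays. In usp107DAmP those of introns 1, 2, 4 and 5 ended without replicate 2 (0.50, 0.49, 0.55 and 0.55, adjusted p from 0.0848 to 0.149), intron 1 also without replicate 1 or 3, and introns 4 and 5 also without replicate 3, whereas intron 6 kept its call. In prp16DAmP at 16 °C the calls of introns 4, 5 and 6 ended without replicate 1 (0.52, 0.46 and 0.55, adjusted p from 0.0822 to 0.161). In pht1∆ usp107DAmP intron 3 lost its call without replicate 3 (0.36, adjusted p = 0.23), and in pht1∆ prp16DAmP all 6 kept theirs when any array of the group was left out.

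The introns of one gene share the exon feature in the index, so these are not independent results. In usp107DAmP and in both double mutants the intron features themselves were mostly level. There no intron feature of the 12 was called by limma, against 5.21%, 11.2% and 4.01% of all intron features. At an unadjusted p under 0.05 they held 3, 1 and 1. In prp16DAmP at 16 °C 2 of the 12 were called, both higher and given below with the share of all features. There 5 had an unadjusted p under 0.05. None was called at 37 °C in swr1∆ (0%, 1 unadjusted), prp16DAmP (0.0207%, 0) or swr1∆ prp16DAmP (0.393%, 4), or in swr1∆ at 30 °C (6.76%, 0). With the mean of the junctions as reference in place of the exon feature, 7 of the 26 called indices kept their call, and with the mean of exon and junction features 10 did. The 7 were introns 4, 5 and 6 in the arrays labelled pht1∆ usp107DAmP, intron 6 in pht1∆ at 16 °C, intron 1 in prp16DAmP at 16 °C, and intron 5 in pht1∆ at 30 °C with usp103 intron 1 in usp107DAmP.

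**Figure D3:**
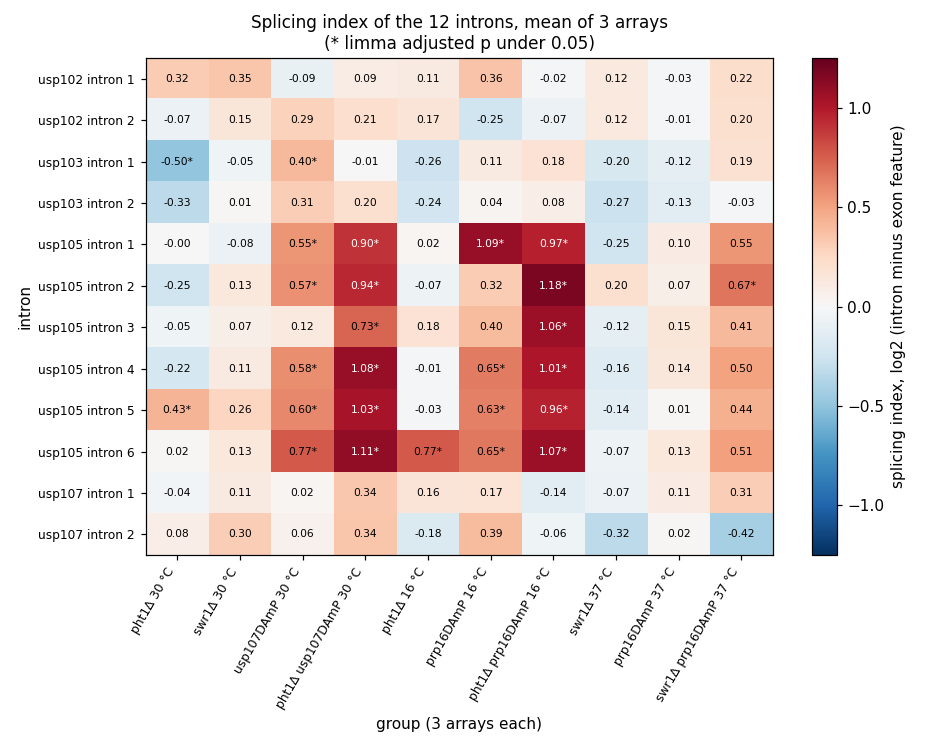
Mean splicing index on the log2 scale (colour and printed value, 3 arrays per cell) of the 12 introns (rows) in the 10 groups (columns), with a star where limma's adjusted p was under 0.05. The high values lie in the rows of usp105, in all 6 for both double mutants and in 5 and 4 starred ones for usp107DAmP and prp16DAmP at 16 °C, while the 6 introns of usp102, usp103 and usp107 stay between -0.50 and 0.40.

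For 3 introns of usp105 the intron feature itself rose. In pht1∆ at 16 °C the feature of intron 6, the last of the gene, read 0.88, 0.50 and 0.56 (0.65 ± 0.10, adjusted p = 1.3e-05). It was the one intron feature of the 12 called in that group (26.6% of all intron features called), and its index of 0.77 ± 0.14 (adjusted p = 2.3e-04) was the one index called (25.7% of all introns), while exon 5 read -0.12. In pht1∆ at 30 °C the same intron read 0.22, -0.12 and -0.22, and the difference between temperatures was 0.69 ± 0.14 (adjusted p = 0.00119, 16.1% called). The index differed by 0.75 ± 0.20 (adjusted p = 0.0179, the 1 of 12 called, against 9.94% of all introns), a call lost without pht1∆ 30 °C replicate 2 or pht1∆ 16 °C replicate 1 or 3 (lowest 0.63, adjusted p = 0.083). In pht1∆ prp16DAmP the intron 6 feature read 0.21, 0.08 and 0.16, lower than in pht1∆ (difference -0.49 ± 0.14, adjusted p = 0.016, 15.1% called). That difference ended without pht1∆ replicate 1 (-0.38, adjusted p = 0.121) or double-mutant replicate 2 (-0.46, adjusted p = 0.0636). The feature of intron 2 differed by 0.44 in the same comparison (adjusted p = 0.0421), and its call ended without any one array of either group. The interaction of pht1∆ and prp16DAmP was called for the features of introns 2 (0.60 ± 0.18) and 6 (-0.67 ± 0.17), 2 of the 12, against 7.61% of all intron features. It takes the genotype of the double mutant from the labels, and there pht1 read -0.03, against -0.74 in pht1∆ at 16 °C. A constant dye bias does not cancel in it.

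Intron 5, the shortest at 37 bases, differed between temperatures in the opposite direction. Its feature read 0.23, 0.28 and 0.58 in pht1∆ at 30 °C (0.37 ± 0.08, adjusted p = 0.00364) and -0.13, -0.12 and -0.19 at 16 °C, without overlap, and the difference was -0.51 ± 0.11 (adjusted p = 0.00263). The call at 30 °C ended without replicate 3 (0.26, adjusted p = 0.0953). Its index was called there too (0.43, adjusted p = 0.0495), a call that ended without replicate 3 (0.26, adjusted p = 0.395) or replicate 1 (0.48, adjusted p = 0.102). On replicate 1, 32.8% of all intron values were repeated values, and the part of this in the result was not tested. Intron 4 fell in the same group (-0.28 ± 0.09, adjusted p = 0.0354), so that 2 of the 12 intron features were called, against 12.6% of all. That call ended without replicate 1 (-0.20, adjusted p = 0.254) or replicate 3 (-0.21, adjusted p = 0.261), and the difference of pht1∆ usp107DAmP from pht1∆ was 0.46 ± 0.12 (adjusted p = 0.0261, 6.29% called), lost without pht1∆ replicate 1 or 3 or double-mutant replicate 2 or 3 (lowest 0.34, adjusted p = 0.112).

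Intron 1 of usp105 carried the highest single intron value. In prp16DAmP at 16 °C it read 0.23, 0.09 and 1.51 (0.61 ± 0.17, adjusted p = 0.0253), and without replicate 3 the mean was 0.16 (adjusted p = 0.628). That array is also the one on which exon 5 stood at -0.09, and the index of intron 1 was high on all 3 arrays (0.89, 0.77 and 1.60), with a low exon value on 2 of them and a high intron value on the third. The index was lower at 37 °C, with a difference of -0.98 ± 0.22 (adjusted p = 0.0266, 1.29% of all introns called), a call that ended without any one of 5 of the 6 arrays.

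Of the index differences between groups, 17 of 168 tests were called, and 15 of these were in usp105. Relative to pht1∆ at the same temperature 5 of the 12 introns were higher in the arrays labelled pht1∆ usp107DAmP (17.8% of all introns called), all in usp105, with differences of 0.61 to 1.30. The smallest, of intron 5, lost its call without replicate 1 or 2 of pht1∆ or replicate 2 or 3 of the double mutant (lowest 0.38, adjusted p = 0.225). In those labelled pht1∆ prp16DAmP 5 were higher (13.1%), all in usp105, with differences of 0.88 to 1.24, and intron 6 was not among them. The call of intron 3 ended without any array of pht1∆ and without replicate 1 or 2 of the double mutant. Relative to the DAmP mutants no index was called, with 0.249% of all introns called at 30 °C and 0.0415% at 16 °C and 3 of the 12 introns at an unadjusted p under 0.05 in each. The largest of these differences was 0.86 ± 0.21 for intron 2 at 16 °C (adjusted p = 0.198), and with the replicate block it was the 1 index called in these comparisons (adjusted p = 0.018, 0.893% of all introns called). The pairs of that block were chosen from these same arrays, so its lower p was partly built in and is not further support. At 37 °C the index of intron 2 in the arrays labelled swr1∆ prp16DAmP read 0.53, 0.87 and 0.61 (0.67 ± 0.15) and was the only one of the 12 called (adjusted p = 0.0487, 0.208% of all introns called), although 6 of the 12 had an unadjusted p under 0.05. Leaving out any array of that group ended the call, and without replicate 3, which stood apart, the index was 0.70 (adjusted p = 0.0549).

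The gene of U1 protein C, usp103, was the other intron-containing gene with index calls. Its exon feature was called in 1 of the 2 groups with such a call, pht1∆ at 30 °C, and not in usp107DAmP. Its transcript level rose in pht1∆ at 30 °C, with arrays at 0.26, 0.26 and 0.55 (0.35 ± 0.11, adjusted p = 0.0163), and the call ended without replicate 3 (0.26, adjusted p = 0.175). In usp107DAmP it read 0.00, -0.63 and -0.14 (-0.26 ± 0.11, adjusted p = 0.0893), so that the ranges of the groups did not overlap. The difference of usp107DAmP from pht1∆ was -0.61 ± 0.15 (adjusted p = 0.00451), which ended without usp107DAmP replicate 2 (adjusted p = 0.0521). The other groups ran from -0.05 to 0.23, with none called.

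The mean index of usp103 intron 1 had the opposite sign to the exon feature in pht1∆ at 30 °C and in usp107DAmP. In pht1∆ at 30 °C it read -0.51, -0.29 and -0.70 (-0.50 ± 0.13, adjusted p = 0.00999), the 1 lower call among the indices. In usp107DAmP it read -0.14, 0.73 and 0.62 (0.40 ± 0.13, adjusted p = 0.0421). The 2 groups differed by 0.90 ± 0.19 for intron 1 (adjusted p = 0.00208, 18.5% of all introns called) and by 0.64 ± 0.21 for intron 2 (adjusted p = 0.0297), the latter lost without pht1∆ replicate 2 or 3 or usp107DAmP replicate 2 (lowest 0.40, adjusted p = 0.202). The intron features of usp103 lay between -0.14 and 0.20 in all groups and were called in none. In pht1∆ at 30 °C 2 of the 12 indices were called in all, against 17.7% of all introns. The call of intron 1 in pht1∆ ended without replicate 1 (-0.49, adjusted p = 0.0541) or replicate 3 (-0.40, adjusted p = 0.118), and that in usp107DAmP without replicate 2 (0.24, adjusted p = 0.422) or replicate 3 (0.29, adjusted p = 0.244). The junction of exons 2 and 3 stayed at -0.03 in pht1∆, and was called in the arrays labelled pht1∆ usp107DAmP alone (-0.25, -0.59 and -0.07, mean -0.30), which ended without replicate 2 (-0.16, adjusted p = 0.292). Its exon feature minus that junction was 0.38 in pht1∆ at 30 °C (adjusted p = 0.0112, 8.38% of genes called) and 0.27 in pht1∆ usp107DAmP (adjusted p = 0.0374), each call ending without either of 2 arrays of its group.

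The U1-70K gene usp101, which has a single exon, had the second highest SD of its 10 group means, at the 87.7 percentile of all exon features, against 92.4 for usp105. Its range of 1.07 over the group means was close to that of usp105 (also 1.07). It was higher in the arrays labelled pht1∆ usp107DAmP, which read 1.40, 0.46 and 0.27 (0.71 ± 0.15, adjusted p = 8.8e-04). All 3 were above 0, but replicate 1 stood far above the others, and without it the level was 0.36 (adjusted p = 0.0705). The difference from pht1∆ at 30 °C, where the arrays read 0.06, -0.54 and -0.11, was 0.91 ± 0.22 (adjusted p = 0.00389). In swr1∆ its arrays read -0.24, -0.72 and -0.14 at 30 °C and 0.17, 0.42 and 0.47 at 37 °C, without overlap, and the difference of 0.72 ± 0.22 was not called (adjusted p = 0.0983, 1.46% of all genes called). Each group overlapped its neighbour in the order of means, from -0.37 in swr1∆ at 30 °C to 0.71.

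The gene of U1 protein A, usp102, and the Luc7 gene usp106 moved little. The usp102 transcript read -0.35, -0.35 and 0.04 in usp107DAmP (-0.22 ± 0.08, adjusted p = 0.0443) and was called in no other group (with the replicate block also in pht1∆ at 30 °C, pht1∆ usp107DAmP and swr1∆ at 30 °C, at -0.15, -0.18 and -0.19), and that call ended without replicate 1 (-0.16, adjusted p = 0.315) or replicate 2. Its junction 2-3 was lower in the arrays labelled pht1∆ usp107DAmP (-0.41, -0.34 and -0.32, mean -0.36 ± 0.11, adjusted p = 0.00993) and pht1∆ prp16DAmP (-0.28, -0.14 and -0.53, mean -0.31 ± 0.11, adjusted p = 0.0433). The first ended without replicate 1 or 2 (adjusted p = 0.0675 and 0.054), the second without any one array. None of its 20 indices was called, with means from -0.25 to 0.36. The usp106 transcript was lower in usp107DAmP (-0.33, -0.29 and -0.17, mean -0.26 ± 0.09, adjusted p = 0.0334) and in the arrays labelled pht1∆ usp107DAmP (-0.21, -0.29 and -0.36, mean -0.28 ± 0.09, adjusted p = 0.0103). All 6 arrays were below 0. The first call ended without replicate 1 or 2 (adjusted p = 0.188 and 0.178), the second without replicate 2 or 3 (0.0585 and 0.0532). Over the other groups usp106 ran from -0.20 to 0.19.

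The target of the DAmP allele, usp107, was not called in either group that carries it. In usp107DAmP its exon feature read 0.07, 0.25 and -0.33 (-0.01 ± 0.12, 95% interval -0.26 to 0.25). The arrays labelled pht1∆ usp107DAmP gave -0.01, 0.45 and -0.78 (-0.11 ± 0.12, interval -0.37 to 0.15). Their own SD was 0.62, and the interval, from the spread shared over all arrays, does not reflect it. In both groups the low value was on replicate 3, the array that correlated least with its group. Without replicate 3 of the double mutant alone its level was 0.22 (adjusted p = 0.0736), and without both these arrays the same level had an adjusted p of 0.0309. Without replicate 2 it was -0.39 (adjusted p = 0.0221), so the sign of usp107 in the double mutant turned on which array was left out. The label of the allele is thus not borne out by its exon feature, and what the probe of exon 2 reports of a disturbed 3′ end was not tested. The 2 introns of usp107 had no called index, and intron 2 rose as a feature in prp16DAmP at 16 °C, with 0.64, 0.42 and 0.71 (0.59 ± 0.12, adjusted p = 0.00322; without replicate 1, 0.56 and adjusted p = 0.0508), one of 2 intron features called there (7.22% of all). Its exon feature read 0.25, 0.13 and 0.21 on the same arrays. The difference of intron 2 between 37 and 16 °C in prp16DAmP was -0.71 ± 0.16 (adjusted p = 0.0432), the 1 intron feature of the 12 called (0.579% of all), and it ended without any one array of either group.

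The Prp40 gene usp104 hardly varied. Its 10 group means lay between -0.04 and 0.17, none was called without the replicate block (with it, pht1∆ prp16DAmP at 0.17, adjusted p = 0.0448), and their SD stood at the 1.2 percentile of all exon features. Across the 30 arrays usp104 and usp107 had the closest profiles of any pair of the 7 genes (Pearson r = 0.706, at the 99.8 percentile of the correlations of all genes with usp104). The arrays share their groups and their wild-type RNA may be shared, so this is a description. Both genes were lowest on replicate 3 of pht1∆ usp107DAmP (usp104 -0.33, usp107 -0.78) and highest on replicate 2 (0.30 and 0.45). The next pair was usp103 and usp105 (r = 0.58), and the lowest was usp101 and usp106 (r = -0.327).

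**Figure D4:**
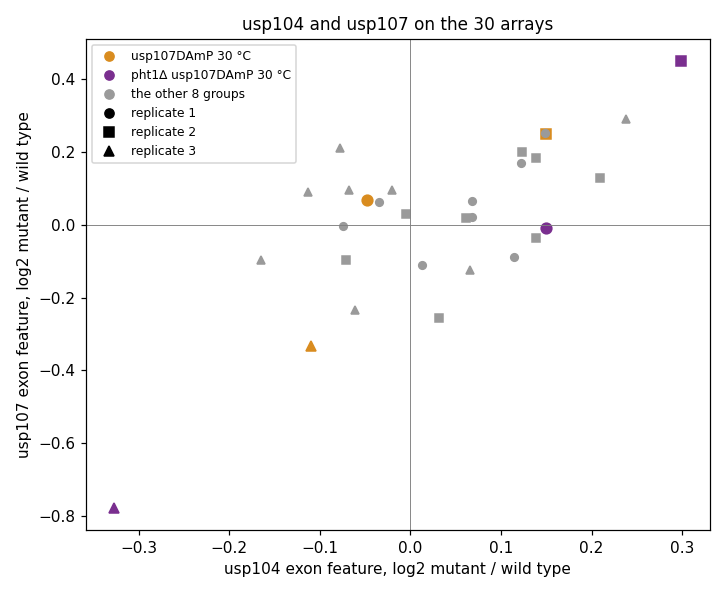
Exon feature of usp107 (vertical axis) against that of usp104 (horizontal axis), both as log2 mutant over wild type, with 1 symbol per array for all 30 arrays. The arrays of pht1∆ usp107DAmP form both ends of the cloud, with replicate 3 at -0.33 and -0.78 and replicate 2 at 0.30 and 0.45.

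Over the 30 arrays the exon features most like that of each gene were imt2 (r = 0.906), rex4 and SPCC191.10 for usp101, mtf2 (0.784), rad26 and taf5 for usp102, SPBC3D6.01 (0.918), vps51 and ekc1 for usp103, and rad55 (0.806), atg1802 and asn2 for usp104. For usp105 they were kae1 (0.932), dcp2 (0.885) and rmt1 (0.885), for usp106 lsg1 (0.745), pop2 and bhd1, and for usp107 trs8501 (0.864), rrp40 and atg1802. None of these 21 places was taken by another of the 7 genes.

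Calls at the transcript level depended on sharing the spread among all 30 arrays. When each group was fitted on its own 3 arrays, 1 of the 9 calls remained, that of usp105 in the arrays labelled pht1∆ prp16DAmP. With the replicate number as a block in the 3 pairs of groups whose same-numbered arrays deviated together, all 9 calls were kept and 9 were added, giving 18 of 70. Among those added were usp105 in swr1∆ prp16DAmP at 37 °C (adjusted p = 0.013), usp103 in usp107DAmP (adjusted p = 0.0327), and usp107 in prp16DAmP at 16 °C (adjusted p = 0.0251) and its double mutant (adjusted p = 0.0133). The junction calls rose from 9 to 20 of 110 with this block, and junction 4-5 of usp105 was then called in prp16DAmP at 16 °C (-0.50, adjusted p = 0.00187). The 3 pairs were chosen by how these same arrays deviated. Lower p-values with this block were thus partly built in, and the calls it added are not further support. A replicate block within each temperature gave 9 transcript and 9 junction calls against wild type.

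Other spliceosome genes, listed with earlier results of these data known, gave 33 higher and 55 lower calls in 490 tests of 49 genes. Counts of calls per group, higher and lower, were 1 and 12 in pht1∆ at 30 °C, 5 and 7 in usp107DAmP, 7 and 12 in the arrays labelled pht1∆ usp107DAmP, 3 and 6 in pht1∆ at 16 °C, 8 and 7 in prp16DAmP at 16 °C and 9 and 9 in the arrays labelled pht1∆ prp16DAmP. In the 4 remaining groups they were 0 higher and 2 lower in all. As shares of the 49 genes these were 26.5%, 24.5%, 38.8%, 18.4%, 30.6% and 36.7%, beside 25.7%, 20.5%, 42.4%, 20.3%, 17.3% and 23.4% of all exon features. The share of the list was thus above that of all genes by the most in the 2 prp16DAmP groups at 16 °C, and no test of the list was made. Medians of the 49 genes lay between -0.07 and 0.02, and those of all genes in the same groups between -0.06 and -0.0039.

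Beside the 7 genes stand usp108 and usp109, which encode further proteins found with fission yeast U1. The usp109 transcript was lower in 5 groups. It read -0.96, -0.68 and -1.04 in pht1∆ at 30 °C (-0.89 ± 0.13, adjusted p = 1.4e-05), -1.01, -1.14 and -0.88 in pht1∆ at 16 °C (-1.01 ± 0.13, adjusted p = 2.9e-06) and -1.23, -1.87 and -0.77 in the arrays labelled pht1∆ usp107DAmP (-1.29 ± 0.13, adjusted p = 1.3e-07). In usp107DAmP it read -0.43 and in the arrays labelled pht1∆ prp16DAmP -0.41, both called. The first of these ended without replicate 2 (-0.33, adjusted p = 0.206), the second without replicate 1 (-0.51, adjusted p = 0.0507) or replicate 3 (-0.26, adjusted p = 0.238). In swr1∆ it read 0.15 at 30 °C and -0.11 at 37 °C, neither called. None of the 7 genes was called in both pht1∆ groups. The usp108 transcript was higher in prp16DAmP at 16 °C (0.47, 0.59 and 0.00, mean 0.35 ± 0.11, adjusted p = 0.026; without replicate 1 or 2, 0.30 and 0.24, adjusted p = 0.229 and 0.262) and in the arrays labelled pht1∆ prp16DAmP (0.68, 0.58 and 0.27, mean 0.51 ± 0.11, adjusted p = 0.00165; without replicate 1, 0.43 and 0.0538), the 2 groups at 16 °C in which usp105 fell.

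The counts for single lists, here and below, run over the 10 groups, in which 0.118% to 42.4% of all exon features were called. They are a description, and no list was compared with all genes over the groups together. Of the Sm proteins, which form the ring common to spliceosomal snRNPs, 4 tests of 70 were higher and 6 lower. smg1 was lower in pht1∆ at 30 °C (-0.60 ± 0.11, adjusted p = 3.9e-04) and smd2 in pht1∆ at 16 °C (-0.47 ± 0.11, adjusted p = 0.00234). smb1 was higher in prp16DAmP at 16 °C (0.44 ± 0.07, adjusted p = 3.0e-04) and smd1 in the arrays labelled pht1∆ prp16DAmP (0.45 ± 0.10, adjusted p = 0.00215). Of the U2 snRNP genes, 2 of 100 tests were higher and 14 lower, led in pht1∆ at 30 °C by prp12 (-1.01 ± 0.21), ini1 (-0.69 ± 0.15) and lea1 (-0.68 ± 0.09, with arrays at -0.72, -0.64 and -0.68). The prp12 arrays read -0.69, -1.70 and -0.63, and without replicate 2 their mean was -0.66 (adjusted p = 0.0436). In the same list sap145 rose in the arrays labelled pht1∆ usp107DAmP (0.39 ± 0.09). Among U2AF and branch-binding genes 3 of 40 were higher and 4 lower, with uap2 and uaf2 at 0.49 in pht1∆ at 16 °C and prp2 at 0.32 in the arrays labelled pht1∆ prp16DAmP. The uaf2 call ended without replicate 2 (0.38, adjusted p = 0.0708), that of prp2 without any one array of its group, and that of smd1 without replicate 1 (0.33, adjusted p = 0.0911).

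In the U5 and tri-snRNP list 14 of 150 tests were higher and 14 lower, led by snu13 (-0.86 ± 0.12) and lsm5 (-0.75 ± 0.14) in pht1∆ at 30 °C, with prp3 at -0.56 in usp107DAmP and lsm7 at -0.49 in pht1∆ at 30 °C. In the Prp19 complex 8 of 110 were higher and 12 lower. They were led by cwf11 in swr1∆ at 37 °C (-0.60 ± 0.10, on arrays of -0.48, -0.57 and -0.75) and by cwf3 (-0.60 ± 0.10) and cwf2 (-0.41 ± 0.11) in the arrays labelled pht1∆ usp107DAmP, with cwf7 at -0.40 in prp16DAmP at 16 °C. The cwf3 arrays read -0.28, -1.05 and -0.46 and those of cwf2 -0.25, -0.87 and -0.12, and without replicate 2 the means were -0.37 (adjusted p = 0.00713) and -0.19 (adjusted p = 0.211). The cwf11 call ended without replicate 3 (-0.53, adjusted p = 0.0583) and that of cwf7 without any one array of its group. The direction of cwf11 depends on the sign of the swr1∆ arrays at 37 °C, of which replicates 2 and 3 ran opposite to some other arrays. Each of the genes named from these lists passed the limma test in the group given, with an adjusted p of 0.038 or lower.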

How the data were processed

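The deposited table holds log ratios of 14556 features on 30 arrays with 0 missing values. They were read as log2, mutant (Cy5) over wild type (Cy3), the direction per the labels. No source used here gives the base, scanner, background correction or normalization. If the authors deposited natural logarithms, each log2 value would be 1.44 times larger, with the same p-values. Array medians lay between -0.006 and 0.0254. Wild type has no arrays of its own, so a test against it is the mean log ratio against 0, which includes dye bias and leaves out the wild-type spread. An interaction is the double mutant's mean with those of both single mutants subtracted, so a constant dye bias remains in it with its sign turned. Nothing in the labels says that replicates came from separate cultures, so the p-values reflect the spread of these arrays, which may be technical.

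Fits used limma 3.58.1 (lmFit, eBayes, R 4.3.3) on the 30 arrays together (a mean for each group, two-sided tests) for 5069 exon features, 4817 splicing indices, 4836 intron and 4651 junction features, in 10 comparisons with wild type and 14 between groups (11 differences and 3 interactions). Calls had an adjusted p under 0.05. The fits were checked on simulated data with independent noise and the same spread in all groups. That check does not show how they behave where arrays deviate together or differ in spread, as these do. The members and lists were chosen with earlier results of these data known. Text names all 7 genes and their features, the targeted genes, up to 4 called genes of each other list with the largest ratios, and 3 genes most correlated with each member. Of 50 listed spliceosome genes 49 were measured. Same-numbered arrays deviated together in 3 of 12 pairs of groups at one temperature (pht1∆ with swr1∆ and usp107DAmP with its double mutant at 30 °C, prp16DAmP with its double mutant at 16 °C), where every correlation of deviations exceeded 0.1. The labels do not say what a replicate number shares, so this pairing was taken from the data. Alternatives left out each array, shared the spread within the groups compared only, rescaled, recentred or weighted arrays, used a replicate block, read natural logarithms and changed the reference of the index. Introns were matched to ASM294v3 by order.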

Additional observations from a re-analysis of the deposited data

Results flagged for a closer look

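The following values differed between groups by a test of the difference itself. Between 16 and 30 °C in pht1∆ the index of usp105 intron 6 was higher by 0.75 ± 0.20 (adjusted p = 0.0179, limma), its intron feature by 0.69 ± 0.14 (adjusted p = 0.00119), and the feature of intron 5 differed by -0.51 ± 0.11 (adjusted p = 0.00263). All 3 arrays at 16 °C lay above all 3 at 30 °C for intron 6 and below them for intron 5. Between 37 and 16 °C in prp16DAmP the index of usp105 intron 1 differed by -0.98 ± 0.22 (adjusted p = 0.0266) and the feature of usp107 intron 2 by -0.71 ± 0.16 (adjusted p = 0.0432). The second of these calls ended when any array of either group was left out, and the first without any one of 5 of those 6 arrays (highest adjusted p = 0.185). Values over all features also spread less on the prp16DAmP arrays at 37 °C (SD 0.131 to 0.142) than on those at 16 °C (0.225 to 0.296). The interaction of pht1∆ and prp16DAmP at 16 °C was 0.60 ± 0.18 for the feature of usp105 intron 2 (adjusted p = 0.0396) and -0.67 ± 0.17 for that of intron 6 (adjusted p = 0.0152). The call of intron 2 ended without any one of 8 of the 9 arrays of the 3 groups, and that of intron 6 without pht1∆ replicate 1, prp16DAmP replicate 3 or double-mutant replicate 2 (highest adjusted p = 0.0743). For intron 6 the feature read 0.65 in pht1∆, 0.18 in prp16DAmP and 0.15 in the arrays labelled as the double mutant. The pht1 exon feature was not called in those double-mutant arrays (-0.03), and whether they lacked pht1 was not tested. Groups of 3 arrays were too small for a test of outlying arrays.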

How the results depend on the processing

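Of the 91 called results of the 7 genes, 77 to 91 kept their call when 1 array was left out, 34 when only the arrays of the groups compared shared the spread, 59 with arrays scaled to equal spread, 87 with recentring on exon features, 69 with array weights and 91 when read as natural logarithms. The leave-out counts include results that do not use the omitted array, so they do not show how far a call rests on its own arrays. Many calls against wild type ended without 1 array of their own group, as given above. Total calls, which can include others than those of the fit over all arrays, were 3 with only the groups compared against 9 over all arrays for transcripts against wild type, 2 against 5 between groups, 17 against 26 and 6 against 17 for the index, 2 against 5 for intron features, 2 against 9 for junctions, 2 against 6 for exon minus junctions and 53 against 88 for other spliceosome genes. With array weights the same totals were 22, 24, 40, 40, 10, 16, 11 and 165, and 13 against 3 for targeted genes. Equal spread gave 8 transcript calls between groups.

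The replicate block in the paired groups kept all 91 and gave 18 transcript calls against wild type and 11 between groups, 26 index calls between groups, 20 junction, 149 spliceosome and 10 targeted-gene calls. Its block within temperature kept 87. Without both usp107DAmP arrays apart from their groups the counts were 15 and 8 for transcripts, 14 for junctions and 7 for targeted genes. Leaving out 1 array gave 4 to 9 transcript calls between groups and 5 to 12 junction calls.

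With junctions as reference the index calls were 11 against wild type and 8 between groups, and with exon and junctions 14 and 9. Signs turned with junctions as reference for the differences of usp105 intron 5 in pht1∆ usp107DAmP minus pht1∆ (-0.028) and of introns 1 (-0.018), 3 (-0.088) and 6 (-0.66, and -0.52 with exon and junctions) in pht1∆ prp16DAmP minus pht1∆. That of usp107 in pht1∆ usp107DAmP turned to 0.22 without both arrays. Apart from the change of reference, the cause was not tested. Signal over background was not used here, so the limit it sets on dim introns is unknown.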
